A study of Mus musculus with 8 samples.

Results

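The genes described here are 8 genes that mark regenerative, fetal-like intestinal epithelium, Ly6a, Ly6d, Anxa1, Anxa10, Clu, Msln, Cd55 and Yap1, and they were followed across colonic tumors of wild-type (WT) and MDR1A KO mice. A gene was taken by its symbol, from array probe sets annotated with that symbol alone, and where it had more than 1 such probe set the brightest was used. By this rule 7 of the 8 genes were measured, among 22180 genes in all. Ly6a, which encodes the surface protein Sca-1, had no probe set under its symbol in the annotation used and was not analysed here.

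The tumors came from the AOM/DSS model of colitis-associated cancer, in which a single dose of the carcinogen azoxymethane (AOM, 10 mg/kg) is followed by dextran sulfate sodium (DSS), an agent that injures the colonic epithelium. Male FVB/N mice aged 6 weeks received AOM and 3 cycles of 2.5% DSS in the drinking water for 7 days each, and tumors, all recorded as adenoma, were taken on day 84. Both genotypes shared strain, sex, AOM and DSS, so no untreated or normal colon entered the comparison. The 4 WT and 4 MDR1A KO mice gave 1 tumor each, and each tumor was hybridised to 1 array that measures RNA of the whole tumor. The MDR1A KO is a deletion in all cells of the mouse, and it removes Abcb1a, which encodes the efflux transporter P-glycoprotein.

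After injury, intestinal epithelium can leave its adult stem cell state for a while and take up a gene programme that resembles the fetal gut. The transcriptional co-activator YAP, which binds DNA through TEAD factors and is held back by the Hippo kinases, is known to drive much of this programme in mice. Ly6a, Anxa1 and Clu are widely used as its markers, while Lgr5 marks the adult stem cells that it replaces.

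None of the 7 measured genes passed a test for a change between the genotypes. At an adjusted p under 0.05 (limma, Benjamini-Hochberg over 25341 named probe sets) 0 of 7 were called, where 0.0158% of all named probe sets were. At an unadjusted p under 0.05 the count was again 0 of 7, beside 6.4% of all probe sets, and 0 of 7 also at an unadjusted p under 0.05 with at least a 2-fold change, beside 0.241%. In 0 of 7 genes were the 4 MDR1A KO values clear of the 4 WT values, against 3.72% of all probe sets. Means were higher in MDR1A KO tumors for 2 genes and lower for 5, and the median log2 fold change (MDR1A KO minus WT) of the 7 was -0.08, where all named probe sets had a median of 0.00098. What set the genes apart from one another was how much they varied between tumors of the same genotype.

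The targeted gene was checked first. Abcb1a had a log2 signal of 8.69, 9.10, 9.46 and 8.93 in WT tumors 1 to 4 and of 6.14, 6.13, 6.37 and 6.87 in MDR1A KO tumors 1 to 4. It fell by 2.67 on the log2 scale (SE 0.20, adjusted p = 0.00599, limma; exact permutation test, p = 0.029, the smallest that 4 against 4 allows), and so the labels were borne out in all 8 tumors. The call depended on the fit, with an adjusted p up to 0.0690 over the limma alternatives tried and of 0.253 with the unpaired test of the methods, while the log2 fold change stayed between -2.83 and -2.53. The position of the probes relative to the deleted part was not checked. The array medians lay between 5.62 and 5.67, and 0 of 28 pairs of arrays held identical values.

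Promoters could be read for 4 of the 8 genes, Anxa1, Anxa10, Cd55 and Yap1, as the 250 bases before the start of each gene (RefSeq, GRCm38.p6). They were searched for CATTCC, the core that TEAD factors bind, on both strands, and for TGANTCA, the AP-1 element, which reads the same way on both strands; no match of one overlapped a match of the other. Anxa1 and Anxa10 are printed because they hold a match and are thought to respond to the programme, unlike Yap1, which drives it; the sequences run 5′ to 3′ with the matches in capitals. The Anxa1 window lies at chr19:20390672-20390921 and the Anxa10 window at chr8:62123194-62123443, both on the minus strand.
Anxa1: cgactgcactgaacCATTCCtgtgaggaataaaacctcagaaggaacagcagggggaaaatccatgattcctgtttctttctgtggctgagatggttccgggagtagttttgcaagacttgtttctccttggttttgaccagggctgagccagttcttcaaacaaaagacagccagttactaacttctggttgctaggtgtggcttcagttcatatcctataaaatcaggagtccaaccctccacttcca
Anxa10: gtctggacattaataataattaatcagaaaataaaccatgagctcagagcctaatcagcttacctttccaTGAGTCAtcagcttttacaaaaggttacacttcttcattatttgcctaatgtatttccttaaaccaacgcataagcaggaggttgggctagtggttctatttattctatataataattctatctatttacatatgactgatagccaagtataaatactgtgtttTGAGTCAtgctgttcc
Anxa1 held 1 CATTCC, 236 bases before the start, and Yap1 held 1 on the other strand, 141 bases before the start. Anxa10 held 2 AP-1 elements, 180 and 16 bases before the start. Cd55 held neither. Of 32851 mouse promoter windows of this length, 12.6% held the TEAD core, 6.75% held the AP-1 element and 0.338% held it 2 or more times, so that a match is a description of the sequence and not of binding.

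Yap1 was the most even of the genes. Its log2 signal was 9.23, 9.02, 8.86 and 9.22 in WT tumors 1 to 4 and 9.09, 8.995, 9.21 and 8.96 in MDR1A KO tumors 1 to 4, a range of 0.37 over all 8 tumors. The groups overlapped almost fully, with means of 9.08 ± 0.17 (SD, n = 4) and 9.06 ± 0.11. The difference was -0.02 (SE 0.11, 95% interval -0.26 to 0.22, adjusted p = 0.989, limma), and an exact two-sided permutation test, run for each of the 7 genes, gave p = 0.80. A dimmer Yap1 probe set, at 3.65 to 4.25, had a difference of -0.01 (SE 0.13).

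**Figure D1:**
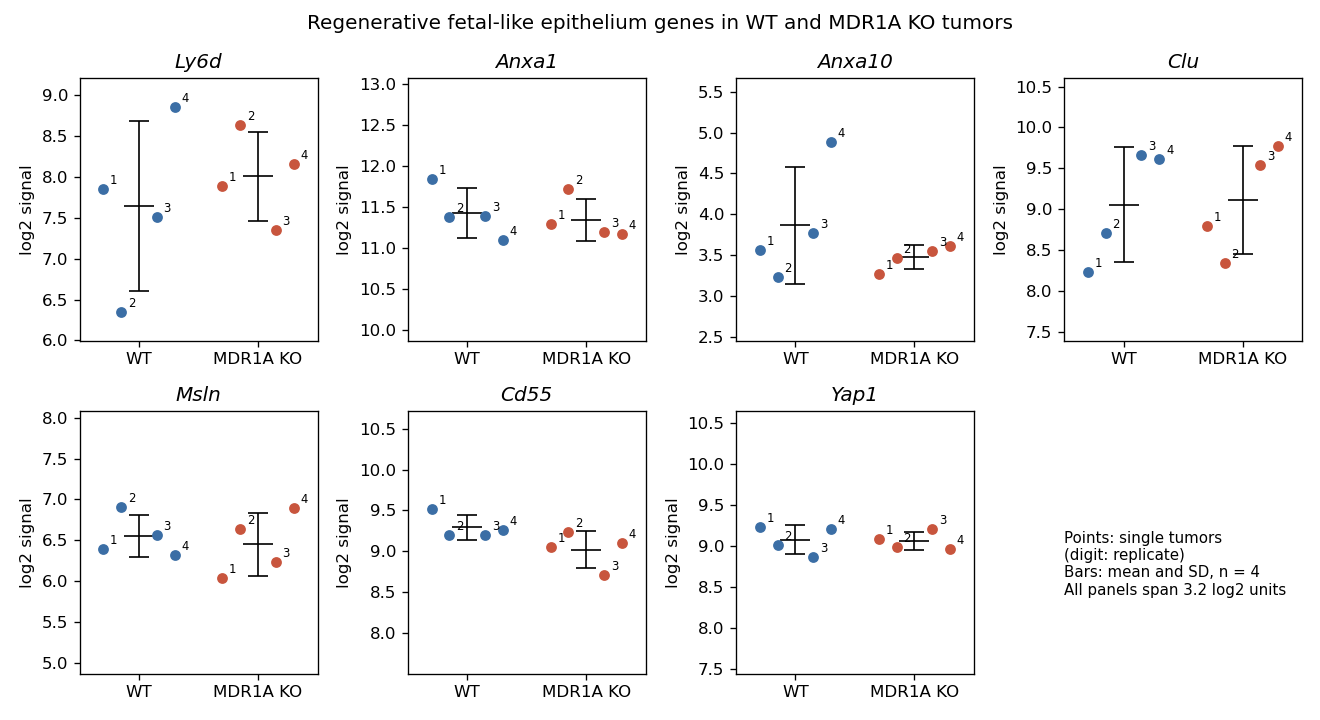
Log2 signal of each measured gene (y axis) in WT (blue) and MDR1A KO (red) tumors, with points for single tumors, digits for the replicate and bars for the mean and SD of 4 tumors; all panels have the same height in log2 units. The groups overlap in each of the 7 genes, and Ly6d and Clu spread most within a genotype.

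Of 22 genes chosen for the pathway and its TEAD partners, 20 were measured, 0 at an adjusted p under 0.05. By the unadjusted p the count was 0 upward and 2 downward in MDR1A KO tumors, beside 3.66% and 2.74% of all probe sets. Tead4, a DNA-binding partner of YAP, stood at 7.64, 7.12, 7.00 and 7.19 in WT tumors and at 6.45, 6.50, 6.73 and 6.77 in MDR1A KO tumors. All 4 MDR1A KO values lay below the WT values, with a log2 fold change of -0.62 (SE 0.15, adjusted p = 0.531, limma). Wwc1, which encodes the Hippo activator KIBRA, had a log2 fold change of -0.29 (SE 0.13). Wwtr1, which encodes the YAP paralog TAZ and was picked after its values were seen, had one of -0.01 that changed sign when single tumors were left out. Vgll4, a competitor of YAP for TEAD, and the scaffold gene Amot had values of 0.22 and 0.34, neither past the threshold. The median of the 20 was 0.01.

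Target genes of YAP and TAZ had a median log2 fold change of -0.01 over 21 measured of 22, with 10 higher and 11 lower means. None passed an adjusted p of 0.05. At an unadjusted p under 0.05, 2 were higher, Arhgef17 (0.25, SE 0.08) and Ccdc80 (0.42, SE 0.17), beside 3.66% of all probe sets. Lower were 2, Myof (-0.40, SE 0.09) and Dock5 (-0.23, SE 0.09), beside 2.74%. The groups were clear of each other in 1 upward and 2 downward, beside 2.13% and 1.59%. Myof encodes myoferlin, a membrane repair protein, and its WT values of 9.96 to 10.14 did not overlap the MDR1A KO values of 9.53 to 9.79. Ccn1 and Ccn2, the best known targets, which encode matricellular proteins, had log2 fold changes of -0.10 (SE 0.24) and 0.11 (SE 0.26), and their sign changed when 1 tumor was left out. Ankrd1, a nuclear ankyrin repeat protein, had one of 0.31 (SE 0.15).

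Anxa1, which encodes annexin A1, a phospholipid-binding protein that limits inflammation and aids wound closure, was among the brightest probe sets of the arrays (percentile 99.2 of the named ones). Its log2 signal was 11.84, 11.38, 11.40 and 11.11 in WT tumors 1 to 4 and 11.29, 11.72, 11.20 and 11.18 in MDR1A KO tumors 1 to 4. WT tumor 1 was the highest and WT tumor 4 the lowest, with the MDR1A KO values between them. The group means of 11.43 ± 0.30 (SD, n = 4) and 11.35 ± 0.26 differed by -0.08 (SE 0.17, 95% interval -0.47 to 0.31, adjusted p = 0.960, limma; exact permutation test, p = 0.60). The interval thus ends well short of a 2-fold change in either direction.

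Neutrophils also carry annexin A1, and the mean log2 signal of 10 measured neutrophil genes followed the same extremes. It was 8.27, 6.83, 7.25 and 5.93 in WT tumors 1 to 4 and 6.76, 7.16, 7.05 and 6.60 in MDR1A KO tumors 1 to 4. WT tumor 1 was highest and WT tumor 4 lowest here too, and MDR1A KO tumor 2 was the highest of its genotype in both. The low of WT tumor 4 was not particular to neutrophil genes. That tumor was also lowest in the means of macrophage (7.88), endothelial (6.94), fibroblast (8.86) and smooth muscle (7.69) genes. None of these lists was highest in WT tumor 1. Fpr2, a receptor of annexin A1 on myeloid cells, ran from 6.47 in WT tumor 1 to 3.99 in MDR1A KO tumor 4 (log2 fold change -0.25, SE 0.51). The part of neutrophils in the Anxa1 values was not tested. In whole tumors fewer cells of a type and less RNA per cell cannot be told apart, and this holds for each gene below.

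Anxa10 encodes an annexin that is best known from gastric epithelium. Its signal was dim, at percentile 13.1 of the named probe sets, and it was 3.57, 3.24, 3.78 and 4.88 in WT tumors 1 to 4 and 3.27, 3.47, 3.56 and 3.61 in MDR1A KO tumors 1 to 4. WT tumor 4 stood above the other 7, which spanned 3.24 to 3.78. The means were 3.87 ± 0.71 (SD, n = 4) in WT and 3.48 ± 0.15 in MDR1A KO tumors, a difference of -0.39 (SE 0.30, 95% interval -1.06 to 0.29, adjusted p = 0.874, limma; exact permutation test, p = 0.429). Without WT tumor 4 the difference was -0.05, so that 1 tumor carried most of it, and without WT tumor 2 it was -0.60.

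Over 13 gastric genes the mean log2 signal was highest in WT tumor 4 (6.76) and next in MDR1A KO tumor 4 (6.67). The other tumors lay between 6.23 and 6.44. Single genes of the list did not all peak in WT tumor 4. Tff2, a trefoil peptide of the gastric mucous neck cell, was at 11.29 in this tumor and at 5.63 to 5.75 in the other WT tumors, and MDR1A KO tumor 4 had the highest value of its genotype at 6.76. Gkn3, a gastrokine, was at 5.94 in WT tumor 4 and at 4.76 to 4.96 in the other WT tumors. Of 13 gastric genes WT tumor 4 was the highest of the 8 tumors in 3 (Tff2, Gkn3 and the mucin gene Muc5ac) and the lowest in 2, Ctse at 10.10 and Vsig1 at 7.95, where the other tumors lay at 10.25 or more and 8.50 or more. All of these but Gkn3 were picked after their values were seen. Between the genotypes 1 of the 13 was past an unadjusted p of 0.05, beside 6.4% of all probe sets. It was the transcription factor gene Sox2 with a log2 fold change of 1.04 (SE 0.43), higher in MDR1A KO tumors.

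Of the 3 genes nearest to Anxa10 in pattern among 18707, all were highest in WT tumor 4, which follows from how they were picked. Likeness was the root mean square difference between log2 values, each gene centred on its own mean over the 8 tumors. It was 0.0829 for Nucb2, which encodes the calcium-binding nucleobindin 2, 0.0998 for Rbpjl, which encodes a transcription factor of pancreatic acinar cells, and 0.136 for Chst2, which encodes a carbohydrate sulfotransferase. Nucb2 was at 10.37 in WT tumor 4 and at 8.78 to 9.19 in the other 7 tumors, and Rbpjl at 7.19 against 5.60 to 6.09.

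Of 12 annexins listed, Anxa1 and Anxa10 included, 11 were measured, and 5 had higher and 6 lower means in MDR1A KO tumors. An unadjusted p under 0.05 was found for 2, both higher, beside 3.66% of all probe sets. Anxa6 ran from 8.74 to 9.45 in WT and from 9.44 to 9.84 in MDR1A KO tumors (log2 fold change 0.57, SE 0.15, adjusted p = 0.606, limma), the groups overlapping by a narrow margin. Anxa13, an annexin of intestinal epithelium, had a log2 fold change of 0.44 (SE 0.17), and Anxa2, which belongs to the wound programme, one of -0.15 (SE 0.09).

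Ly6d encodes a GPI-anchored surface protein of the Ly6 family that is known from squamous epithelium and from lymphoid progenitors. Its log2 signal was 7.86, 6.35, 7.51 and 8.85 in WT tumors 1 to 4 and 7.88, 8.63, 7.34 and 8.15 in MDR1A KO tumors 1 to 4. Both the highest and the lowest of the 8 tumors were WT, WT tumor 4 and WT tumor 2, and they lay 2.50 apart. The means were 7.64 ± 1.03 (SD, n = 4) and 8.002 ± 0.54, with a difference of 0.36 (SE 0.47, 95% interval -0.70 to 1.42, adjusted p = 0.927, limma; exact permutation test, p = 0.571). The SD within genotypes, 0.82, was at the 98.9th percentile of all named probe sets, and the interval does not exclude a 2-fold higher level in MDR1A KO tumors. Leaving out WT tumor 2 turned the difference to -0.07, and leaving out WT tumor 4 raised it to 0.76.

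**Figure D2:**
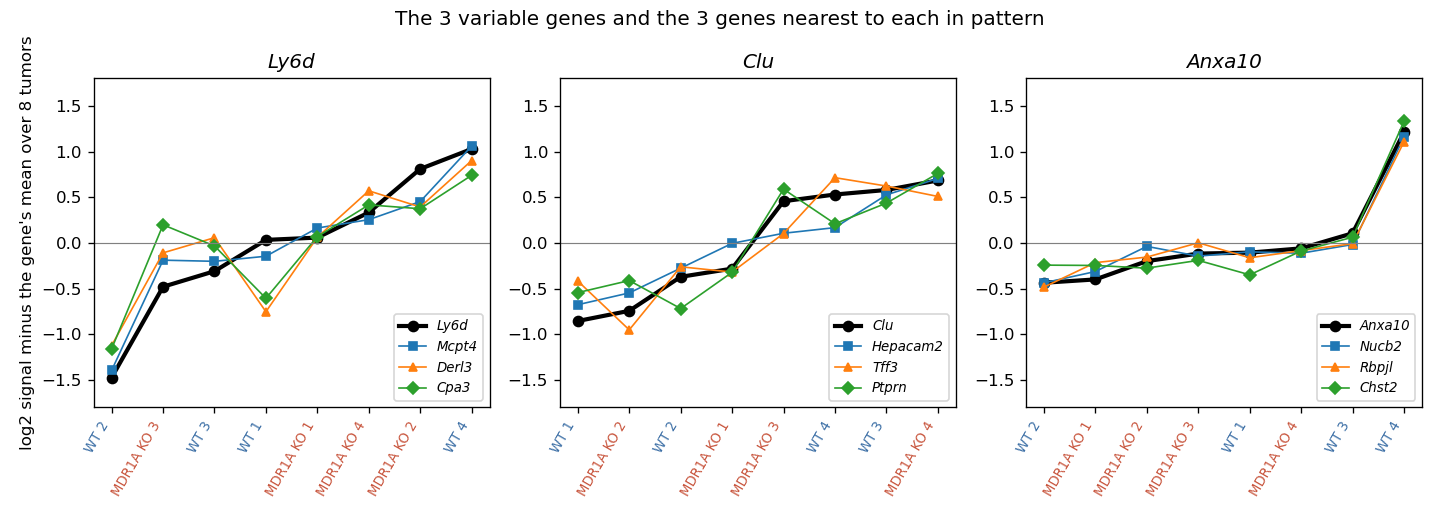
Log2 signal minus the mean of each gene over 8 tumors (y axis) for Ly6d, Clu and Anxa10 (black) and the 3 genes with the smallest root mean square difference to each, with tumors on the x axis ordered by the black gene and labels blue for WT and red for MDR1A KO. Mcpt4 follows Ly6d from WT 2 to WT 4, and Nucb2, Rbpjl and Chst2 share the single high tumor of Anxa10.

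The gene nearest to Ly6d in pattern was Mcpt4, which encodes a protease of mast cells (root mean square difference 0.187), followed by Derl3, which encodes a protein of the endoplasmic reticulum (0.396), and Cpa3, which encodes the mast cell carboxypeptidase (0.407). Mcpt4 was at 7.18, 5.93, 7.13 and 8.39 in WT tumors 1 to 4 and at 7.49, 7.78, 7.14 and 7.58 in MDR1A KO tumors 1 to 4. Like Ly6d it was lowest in WT tumor 2 and highest in WT tumor 4, and MDR1A KO tumor 2 led its genotype in both. A mast cell list of 12 genes was made after these values were seen. It holds Mcpt4 and Cpa3, so part of its likeness to Ly6d was fixed by that choice. The list had its lowest mean in WT tumor 2 (6.67), its highest in WT tumor 4 (8.34) and the next in MDR1A KO tumor 2 (7.95). A list of 9 plasma cell genes, made in the same way and holding Derl3, was also lowest in WT tumor 2 (7.23). Its MDR1A KO tumors stood in the order of Ly6d, at 8.38, 8.30, 8.01 and 7.97 in tumors 2, 4, 1 and 3. Among WT tumors, however, tumor 3 (8.19) was above tumor 4 (7.81).

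Squamous epithelium, where Ly6d is known, was read from 13 genes, and these had a different order of tumors. Their mean log2 signal was highest in MDR1A KO tumor 2 (6.95) and next in WT tumor 4 (6.39), the 2 tumors with the most Ly6d, but lowest in MDR1A KO tumor 4 (5.76), which came next in Ly6d. Krt6a, a keratin of stratified and wounded epithelium picked after its values were seen, reached 9.65 in MDR1A KO tumor 2 and 8.09 in WT tumor 4 and was at 4.83 in WT tumor 2. Between the genotypes 2 of the 13 were higher in MDR1A KO tumors at an unadjusted p under 0.05, beside 3.66% of all probe sets. Of these 2, Col17a1, a collagen of hemidesmosomes, had groups that did not overlap (log2 fold change 0.88, SE 0.20, adjusted p = 0.462, limma). It was the 1 such gene of the 13, beside 2.13% of all probe sets upward. The parts of mast cells, plasma cells and squamous cells in the Ly6d values were not tested.

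In the Ly6 family 18 of 20 listed genes were measured, Ly6d among them, with 9 higher and 9 lower means. In MDR1A KO tumors 3 were higher and 1 lower by the unadjusted p, beside 3.66% and 2.74% of all probe sets, and none passed the adjusted threshold. Ly6e, a surface protein of broad expression and a gene of the fetal-like list too, was at 12.31 to 12.40 in WT and at 12.51 to 12.63 in MDR1A KO tumors (log2 fold change 0.22, SE 0.07), a small difference with a smaller spread. Ly6m was at 9.69 to 11.08 against 8.98 to 9.68 (-0.98, SE 0.29), and here WT tumor 3 and MDR1A KO tumor 4 were nearly level. Ly6c2, which marks inflammatory monocytes, and Lypd3 had log2 fold changes of 0.80 (SE 0.35) and 0.33 (SE 0.14). Psca, picked after its values were seen, had the widest difference of the family at 2.12 (SE 1.04), and it rested on MDR1A KO tumor 2 at 10.80, where the other MDR1A KO tumors lay between 5.15 and 6.95. Without that tumor it was 0.94. Many members of this family, though not all of those listed, lie close together in the genome and are alike in sequence. How the probe sets part them was not tested.

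Clu encodes clusterin, a secreted chaperone that marks revival stem cells of the injured mouse intestine. Its log2 signal was 8.23, 8.71, 9.66 and 9.61 in WT tumors 1 to 4 and 8.80, 8.34, 9.54 and 9.77 in MDR1A KO tumors 1 to 4. In each genotype 2 tumors were high and 2 low, and the means of 9.06 ± 0.70 (SD, n = 4) and 9.11 ± 0.66 were nearly equal. The difference was 0.06 (SE 0.39, 95% interval -0.83 to 0.94, adjusted p = 0.993, limma; exact permutation test, p = 0.80), within an SD of 0.68 among tumors of a genotype (98.3rd percentile). Leaving out 1 tumor at a time moved it from -0.22, without WT tumor 1, to 0.32, without MDR1A KO tumor 2.

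The genes nearest to Clu in pattern were Hepacam2 (root mean square difference 0.227), Tff3 (0.234) and Ptprn (0.244). Tff3, the trefoil peptide of goblet cells, was at 8.52, 8.67, 9.56 and 9.65 in WT tumors 1 to 4 and at 8.61, 7.98, 9.04 and 9.44 in MDR1A KO tumors 1 to 4. Ptprn encodes a protein of neuroendocrine secretory granules and was at 5.76, 5.59, 6.74 and 6.52 in WT tumors 1 to 4 and at 5.99, 5.90, 6.90 and 7.07 in MDR1A KO tumors 1 to 4. Both were higher in replicates 3 and 4 than in replicates 1 and 2 of each genotype, as Clu was.

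A list of 11 goblet cell genes, made after these values were seen and holding Tff3 and Hepacam2, had mean log2 signals of 9.42, 9.59, 10.63 and 10.71 in WT tumors 1 to 4 and of 9.72, 9.03, 10.20 and 10.72 in MDR1A KO tumors 1 to 4. The 4 tumors with the most Clu were thus the 4 with the highest goblet cell mean. They also led in 9 enteroendocrine genes, a list made in the same way that holds Ptprn, with means of 7.06 in WT tumor 3, 6.55 in MDR1A KO tumor 4, 6.45 in MDR1A KO tumor 3 and 6.25 in WT tumor 4, the last nearly level with MDR1A KO tumor 1 at 6.24. The part of either cell type in the Clu values was not tested. Of 4 clusterin receptors, 1 was past an unadjusted p of 0.05, beside 6.4% of all probe sets. This was Trem2, a lipid-binding receptor of macrophages, which ran from 6.47 to 6.91 in WT and from 6.90 to 7.29 in MDR1A KO tumors (log2 fold change 0.41, SE 0.13, adjusted p = 0.686, limma). In MDR1A KO tumors 8 of 12 macrophage genes were higher at an unadjusted p under 0.05, where 3.66% of all probe sets were. The mean of the 12 genes was 7.88 to 8.51 in WT and 8.43 to 8.66 in MDR1A KO tumors.

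Cd55 came nearest to a difference. It encodes decay-accelerating factor, which protects cells from their own complement. The log2 signal was 9.51, 9.20, 9.20 and 9.27 in WT tumors 1 to 4 and 9.05, 9.24, 8.71 and 9.10 in MDR1A KO tumors 1 to 4. MDR1A KO tumor 2, at 9.24, lay above WT tumors 2 and 3, and the other 3 MDR1A KO tumors lay below all 4 WT tumors. The means of 9.29 ± 0.15 (SD, n = 4) and 9.02 ± 0.22 differed by -0.27 (SE 0.13, 95% interval -0.56 to 0.02). The unadjusted p was 0.0625 and the adjusted p 0.786 (limma), and the exact permutation test gave p = 0.0857. When arrays were centred on their medians the difference was -0.31 and the unadjusted p 0.0399, while the adjusted p stayed between 0.593 and 0.997 over all settings tried.

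**Figure D3:**
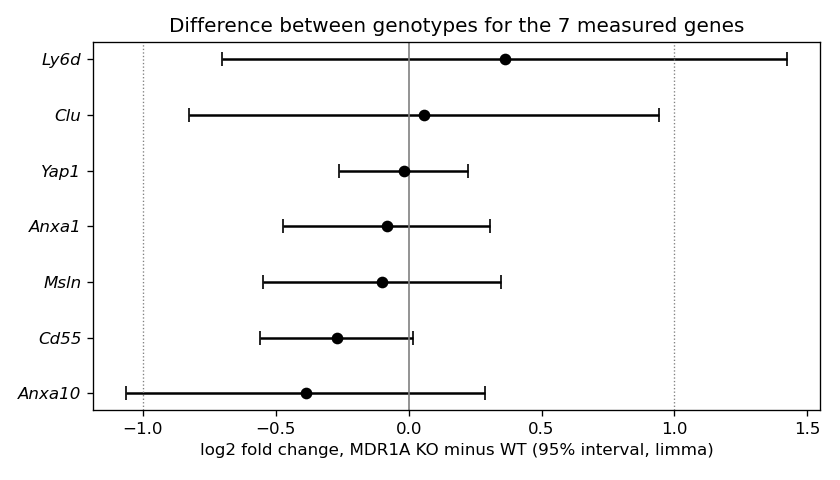
Difference in log2 signal, MDR1A KO minus WT (x axis), for the 7 measured genes, with points for the estimate and bars for the 95% interval from limma, 4 tumors a genotype; dotted lines mark a 2-fold change. Each interval covers 0, Cd55 by the least, and those of Ly6d and Anxa10 reach past 2-fold.

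Of 11 other complement regulators 9 were measured, 4 with higher and 5 with lower means, and 0 passed an unadjusted p of 0.05. Cd59a, which blocks the last step of complement attack, had a log2 fold change of 0.32 (SE 0.25), and Serping1, which encodes the C1 inhibitor, one of 0.12 (SE 0.20). Lower means were found for Cd59b (-0.10, SE 0.13) and Cr2 (-0.46, SE 0.85). Of 14 genes of intestinal epithelium 13 had a lower mean in MDR1A KO tumors, and the mean log2 signal of the list was 10.44 to 10.58 in WT and 10.22 to 10.43 in MDR1A KO tumors, which did not overlap. The 3 at an unadjusted p under 0.05 were the cadherin gene Cdh17 (-0.38, SE 0.09), the differentiation keratin Krt20 (-0.65, SE 0.19) and the intestinal transcription factor Cdx2 (-0.65, SE 0.25). All 3 were lower, where 2.74% of all probe sets were at this p. The share of epithelium in these tumors and its part in the Cd55 values was not tested.

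Msln encodes mesothelin, a surface protein of mesothelium that appears in fetal-like and tumor epithelium. Its log2 signal was 6.40, 6.91, 6.57 and 6.33 in WT tumors 1 to 4 and 6.04, 6.64, 6.24 and 6.90 in MDR1A KO tumors 1 to 4. The highest tumors of the genotypes were level, and the lowest 3 were not all of 1 genotype. The means were 6.55 ± 0.26 (SD, n = 4) and 6.45 ± 0.39, and the difference was -0.10 (SE 0.20, 95% interval -0.55 to 0.35, adjusted p = 0.956, limma; exact permutation test, p = 0.629). Muc16, which encodes the mucin that mesothelin binds, had a log2 fold change of 0.26 (SE 0.15), and the paralog Mslnl one of 0.11. Mesothelial genes did not follow Msln, since the mean of 8 such genes was lowest (5.09) in WT tumor 2, the tumor with the most Msln, and highest (5.68) in MDR1A KO tumor 2.

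The wider fetal-like and wound programme was then read from a list of 28 further genes, none of them among the 8, of which 24 were measured. Here 8 had higher and 16 lower means in MDR1A KO tumors, with a median log2 fold change of -0.09, near the -0.08 of the 7 genes. None was past an adjusted p of 0.05. By the unadjusted p 2 were higher and 5 lower, beside 3.66% and 2.74% of all probe sets, and the groups were clear of each other in 1 upward and 4 downward, beside 2.13% and 1.59%.

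Ereg, which encodes the EGFR ligand epiregulin, was at 11.28, 9.99, 10.16 and 10.45 in WT tumors 1 to 4 and at 8.45, 8.27, 9.49 and 9.98 in MDR1A KO tumors 1 to 4 (log2 fold change -1.42, SE 0.41, adjusted p = 0.649, limma). Plaur, the urokinase receptor, which has its place in wound healing, was at 9.06, 8.24, 8.37 and 8.23 in WT tumors and at 7.63, 7.59, 7.73 and 7.89 in MDR1A KO tumors (-0.77, SE 0.18). Neither overlapped between the genotypes, although Ereg nearly did. Lgals3, which encodes galectin-3, was lower by a smaller step (-0.36, SE 0.10), as was Tnfrsf12a, the receptor of TWEAK (-0.35, SE 0.12), and Sprr1a, a protein of the cornified envelope that wounded epithelium makes, had -0.59 (SE 0.24).

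Plet1, a surface protein of progenitor cells in gut and skin, went the other way. It was at 11.73, 10.14, 10.62 and 10.19 in WT tumors 1 to 4 and at 11.62, 11.99, 11.27 and 11.82 in MDR1A KO tumors 1 to 4 (log2 fold change 1.00, SE 0.33, adjusted p = 0.708, limma), with WT tumor 1 level with the MDR1A KO tumors. Ereg and Plet1 were the 2 genes of this list past an unadjusted p of 0.05 with at least a 2-fold change, and both belong to the genes the study picked on these samples, so they are not independent evidence of a direction. Plet1, Tnfrsf12a and Sprr1a were named after their values were seen.

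**Figure D4:**
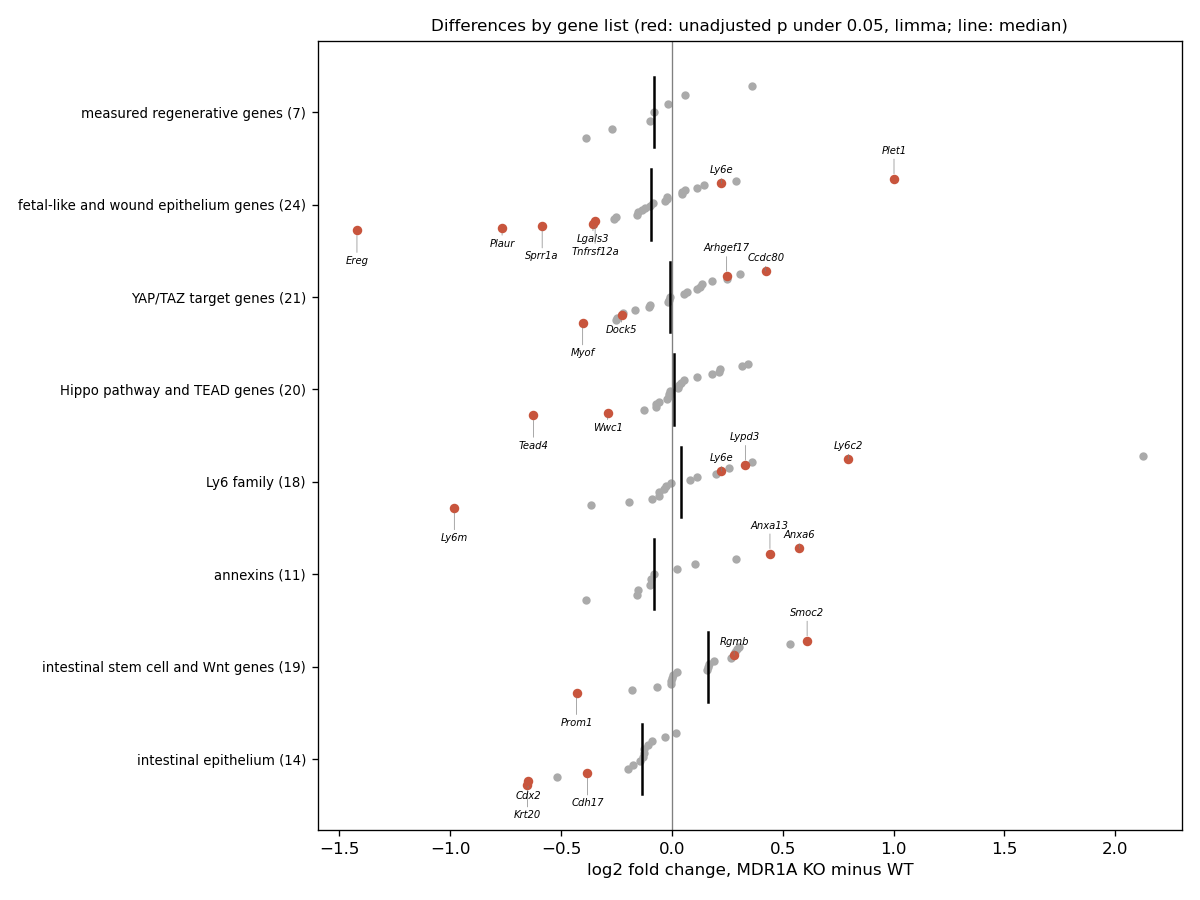
Difference in log2 signal, MDR1A KO minus WT (x axis), for the measured genes of 8 lists (number in brackets), red and named where the unadjusted p was under 0.05 in limma, with a black line at the median of each list. Medians lie between -0.14 and 0.16, and the 7 regenerative genes at the top hold no red point.

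For the adult stem cell state that the regenerative programme replaces, 20 stem cell and Wnt target genes were listed and 19 measured, 14 with higher means in MDR1A KO tumors and a median log2 fold change of 0.16. Past an unadjusted p of 0.05 were 2 with higher values, Smoc2 (0.61, SE 0.17) and Rgmb (0.28, SE 0.10), and 1 with lower values, Prom1 (-0.43, SE 0.17), with 0 past the adjusted threshold. Of all probe sets 3.66% were higher and 2.74% lower at an unadjusted p under 0.05. Lgr5, named after its values were seen, was at 8.91, 9.17, 7.83 and 8.24 in WT tumors 1 to 4 and at 9.26, 8.16, 9.40 and 9.47 in MDR1A KO tumors 1 to 4 (0.53, SE 0.35, adjusted p = 0.844, limma). The 3 highest tumors were MDR1A KO, but MDR1A KO tumor 2 was the second lowest of all 8. It was also the MDR1A KO tumor with the least Clu and the most Ly6d and Anxa1.

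Across the 8 tumors the genes did not rise and fall together. WT tumor 4 was highest in Ly6d and Anxa10 and lowest in Anxa1, WT tumor 1 was highest in Anxa1, Cd55 and Yap1 and lowest in Clu, and WT tumor 2 was highest in Msln and lowest in Ly6d and Anxa10. The number of arrays, 4 a genotype, limits the precision, and the interval of the difference was narrowest for Yap1 and widest for Ly6d.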

How the data were processed

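RNA of 8 colonic tumors, 1 per mouse, was hybridised to GeneChip Mouse Gene 2.0 ST arrays. The authors deposited log2 signals after RMA (background correction, quantile normalization, summary by probe set), run in Affymetrix Expression Console 1.4. No source used here gives the genome build of the arrays, nor which of the named RNA isolation kits each tumor received. Of 41345 probe sets 25341 had a gene symbol, 23521 a single one and 1820 several, which named no gene, and 16004 had none.

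Genotypes were compared on the deposited values with limma 3.58.1 (lmFit and eBayes, no covariate) under R 4.3.3, and p-values were adjusted by Benjamini-Hochberg over all probe sets with a symbol, at a threshold of 0.05. An unadjusted p under 0.05 with at least a 2-fold change, the criterion of the methods, was counted too. Exact two-sided permutation tests ran over the 70 arrangements of the tumors. Figures were drawn with Python 3.11.15 and matplotlib 3.10.9. Replicates are tumors of separate mice.

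The genes and gene lists were chosen with earlier results of these data known. Named are the 8 genes, Abcb1a, up to 4 genes of smallest p per epithelial or pathway list, and the 3 genes nearest in pattern to each gene with an SD over tumors of at least 0.5. Marker lists of other cells are given by counts and means. Mast cell, goblet cell, enteroendocrine and plasma cell lists, and the genes Plet1, Tnfrsf12a, Sprr1a, Ccn1, Ccn2, Ankrd1, Lgr5, Tff2, Psca, Krt6a, Wwtr1, Muc5ac, Ctse and Vsig1, were chosen after values were seen. Promoter sequences are from RefSeq (GRCm38.p6). Alternatives were another test, variance model, probe set choice, filter, normalization, fold threshold or replicate block, array weights, and leaving out each tumor.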

Additional observations from a re-analysis of the deposited data

Results flagged for a closer look

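In 7 of 160 groups of 4 tumors, 1 tumor stood far from the other 3, its gap to the nearest exceeding Dixon's 95% critical share of the group's range. Chance alone gives about 1 in 20 such groups. The 7 include 4 in genes that were named after their values were seen (Ankrd1, Lgr5, Tff2 and Krt6a), and without the 14 genes so named it was 3 of 132. In 0 of 14 groups of the 7 measured regenerative genes was this so.

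In WT tumors, Plaur was at 9.06 in replicate 1, where the other 3 lay between 8.23 and 8.37. Prom1 was at 9.56 in WT replicate 3, below the 10.09 to 10.16 of the others, and Ankrd1 was at 6.41 in the same tumor, above 5.83 to 5.90. WT replicate 4 was apart in 2 of the 8 gastric genes examined, with Tff2 at 11.29 against 5.63 to 5.75 and Gkn3 at 5.94 against 4.76 to 4.96. It was also the tumor with the highest Anxa10 and had the lowest Ctse and Vsig1 of the gastric list.

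In MDR1A KO tumors, replicate 2 had the lowest Lgr5, at 8.16 against 9.26 to 9.47, and the highest Krt6a, at 9.65 against 5.48 to 6.09.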

How the results depend on the processing

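The count of regenerative genes at an adjusted p under 0.05 was 0 of 7 under each alternative run. At an unadjusted p under 0.05 it was 0, but 1 with a trend and robust variance model, with arrays centred on their medians and with quantile normalization repeated, and 0 to 1 when single tumors were left out (1 without MDR1A KO replicate 2). The gene was Cd55 each time. Of 125 values of single regenerative genes 113 kept their direction and 12 changed it, each when 1 tumor was left out. The log2 fold change then ran from -0.070 to 0.76 for Ly6d, -0.21 to 0.054 for Anxa1, -0.22 to 0.32 for Clu, -0.25 to 0.038 for Msln and -0.092 to 0.030 for Yap1, while it ran from -0.60 to -0.05 for Anxa10 and from -0.34 to -0.17 for Cd55. Anxa10 was not tested with dim probe sets left out.

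Among other named genes except Vsig1 the sign changed only when a tumor was left out, with ranges of -0.27 to 0.12 for Ccn1, -0.15 to 0.32 for Ccn2, -1.04 to 0.36 for Cr2, -0.57 to 0.25 for Fpr2, -0.084 to 0.33 for Hepacam2, -0.91 to 0.53 for Krt6a, -0.010 to 0.087 for Lrp2, -0.067 to 0.75 for Mcpt4, -0.50 to 0.032 for Nucb2, -0.42 to 0.10 for Rbpjl, -0.025 to 0.29 for Serping1, -0.073 to 0.054 for Wwtr1, -0.045 to 0.0066 for Muc5ac, -0.23 to 0.14 for Vsig1 and -1.78 to 0.10 for Tff2. Vsig1, with a log2 fold change of 0.0020, was also at -0.033 with array weights, -0.039 with arrays centred and -0.0145 with quantile normalization repeated. Abcb1a kept its direction throughout (-2.83 to -2.53), with an adjusted p between 0.00181 and 0.0690 in limma and of 0.253 with the unpaired test of the methods.

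Over all named probe sets, the 4 at an adjusted p under 0.05 became 1 with the unpaired test of the methods, 7 with the trend and robust model, 7 with array weights, 7 with quantile normalization repeated, 2 with all probe sets and 0 to 4 without single tumors. The 61 past an unadjusted p of 0.05 and 2-fold became 36 with the test of the methods, 136 with all probe sets, 251 at 1.5-fold and 58 to 123 without single tumors. With the replicate number as a block 0 probe sets passed the adjusted threshold, 1663 passed an unadjusted p of 0.05 (1622 without the block) and 0 of the 7 genes changed their call. Deviations of same-numbered tumors correlated at 0.11, 0.02, -0.10 and 0.35 for replicates 1 to 4. Differently numbered tumors were not compared in this way, so these values cannot decide whether the numbers pair the tumors.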

Other observations

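Other cell types in the same tumors were read from marker lists, and no gene of these passed an adjusted p of 0.05 (limma). By the unadjusted p, 3 of 17 interferon-induced, 1 of 9 T cell and 2 of 9 plasma cell genes were higher in MDR1A KO tumors and 0 lower. Of all probe sets 3.66% were higher and 2.74% lower at this p. The count was 0 of 9 B cell, 0 of 10 neutrophil, 0 of 12 endothelial and 0 of 11 fibroblast genes. It was also 0 of 9 smooth muscle, 0 of 8 mesothelial, 0 of 12 mast cell, 0 of 11 goblet cell and 0 of 9 enteroendocrine genes. Lists this short cannot set a count of 0 apart from the 6.4% of all probe sets that passed. Over the plasma cell genes, Derl3 among them, the mean log2 signal was 7.23 to 8.19 in WT and 7.97 to 8.38 in MDR1A KO tumors, and over the enteroendocrine genes, Ptprn among them, 5.62 to 7.06 and 5.95 to 6.55. Smooth muscle genes had higher means in MDR1A KO tumors in 9 of 9, yet their list mean ran from 7.69 to 9.90 in WT and from 9.23 to 9.60 in MDR1A KO tumors, so that the WT tumors lay on both sides. The interferon-induced genes were highest in MDR1A KO tumor 2 (7.97), the tumor that also led in Psca, Krt6a and the squamous genes.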
